A study of Caenorhabditis elegans with 2 samples.

Results

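The peaks described here are the 323 of 1194 listed peaks (27.05%) of a ztf-29 chromatin immunoprecipitation whose summits lay at starts of protein-coding genes and away from small RNA genes. They were chosen by 4 criteria applied to the pooled peak lists of both replicates, which hold 1114 peaks of the thresholded list and 80 peaks that only the conservative list has. The summit had to lie between 500 bp upstream and 100 bp downstream of an annotated protein-coding transcript start, which 376 peaks met. It had to be over 200 bp from every tRNA, snoRNA and snRNA gene, which removed 40 peaks. The sequence within 50 bp had to hold no 2 tandem copies of the telomeric hexamer, which removed 13 more. Of the 323 promoter peaks, 295 came from the thresholded list and 28 from the conservative list alone. The members were thus selected on their deposited irreproducible discovery rate (IDR), so their signal and IDR are given as a description with no test.

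The protein of ztf-29 was mapped by ChIP-seq in whole mid-stage embryos of Caenorhabditis elegans strain RW12283, collected by egg bleaching with a labelled age of 0 hour. Both samples had the endogenous ztf-29 gene fused by CRISPR to TY1::EGFP::3xFLAG, and sonicated chromatin of 200 to 800 bp was precipitated with an antibody against GFP. The 2 biological replicates form a single group, so no genotype, stage or treatment was compared, and an embryo without the tag was not analysed here. Since embryos were used whole, a peak cannot be assigned to a cell type. The read depth is unknown, and no source used here states the scale of the deposited signal. ztf genes encode zinc finger proteins, many of which bind DNA through their fingers. Worm promoters are compact, and many genes lie head to head on opposite strands or follow each other closely on the same strand. The mature messages of many worm genes begin with a leader added by trans-splicing, so an annotated start is often not the place where transcription begins.

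Summit sequences of strong promoter peaks are printed first, because the words of 6 bases described further on can be seen in them. Each stretch is the 71 bp centred on the summit in the WBcel235 (ce11) assembly, 5′ to 3′ on the strand of the assigned gene, and none overlaps an annotated UTR. Capitals mark, on either strand, those words of 6 bases more common at promoter peak summits that are named in the comparisons of words further on. Other words that were also more common there are not marked.
The atx-2 stretch (chrIII:10461292-10461362, + strand) lay under the peak with the highest signal.
atx-2: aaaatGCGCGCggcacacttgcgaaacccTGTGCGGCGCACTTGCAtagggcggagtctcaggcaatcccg
The idhg-1 stretch (chrIII:4568703-4568773, + strand) and the swsn-3 stretch (chrIII:2768799-2768869, - strand) hold the same pair of words as atx-2, TGCGGC and then CTTGCA.
idhg-1: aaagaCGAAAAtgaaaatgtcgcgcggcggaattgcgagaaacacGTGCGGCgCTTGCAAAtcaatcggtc
swsn-3: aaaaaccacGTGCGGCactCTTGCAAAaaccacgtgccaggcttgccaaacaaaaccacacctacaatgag
The rpl-3 stretch (chrIII:3867540-3867610, + strand) and the tasp-1 stretch (chrIII:10759183-10759253, + strand) hold the words of the GCGCAC kind.
rpl-3: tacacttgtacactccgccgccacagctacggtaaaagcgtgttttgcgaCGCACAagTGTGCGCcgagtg
tasp-1: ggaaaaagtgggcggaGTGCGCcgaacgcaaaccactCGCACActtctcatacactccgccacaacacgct
The mtcu-2 stretch (chrII:10033643-10033713, - strand) holds the word CGAAAA more than once and the 101 bp around that summit hold a run of 20 bases found in 20 places of the genome.
mtcu-2: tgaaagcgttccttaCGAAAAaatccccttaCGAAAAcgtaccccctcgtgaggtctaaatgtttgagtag
The T13C5.6 stretch (chrX:6207907-6207977, - strand), whose summit lay in an exon of a non-coding RNA gene, and the Y59A8B.24 stretch (chrV:17951503-17951573, + strand) hold none of the marked words. Both do hold unmarked words that were more common than in other listed peaks, among them GCGTCA in T13C5.6 and GCGAAA, on the other strand, in Y59A8B.24.
T13C5.6: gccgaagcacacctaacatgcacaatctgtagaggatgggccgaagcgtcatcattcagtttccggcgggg
Y59A8B.24: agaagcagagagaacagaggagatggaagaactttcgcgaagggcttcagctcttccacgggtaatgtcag

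The promoter peaks had a median signal of 84.35, with quartiles of 71.65 and 113.7 and a range of 2.434 to 305.4. The 441 other listed peaks, outside promoter windows and away from small RNA genes and telomeric repeats, had a median of 80.42. The 277 listed peaks near small RNA genes had a median of 125.9. Candidates that met the same position rule but had an IDR over 0.01 and overlapped no listed peak, called failed candidates below, reached 83.62 at most, with a median of 26.95 (n = 8168). Of the 8491 members and failed candidates together, 323 were members, or 3.80%. Of the promoter peaks, 156 had a signal under that highest failed value, since the IDR and not the signal set the limit.

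The 4 strongest promoter peaks lay at atx-2, rpl-3, the pair ears-2 and uncp-18, and idhg-1. At atx-2, the worm ataxin-2 gene, whose product binds RNA, the signal was 305.4 in the pooled list, 128.5 in replicate 1 and 171.0 in replicate 2. The rpl-3 peak, at a large-subunit ribosomal protein gene, had 293.7 in the pooled list, 109.4 in replicate 1 and 193.9 in replicate 2. The peak between ears-2, a mitochondrial glutamyl-tRNA synthetase, and uncp-18 had 282.6 in the pooled list, 116.0 in replicate 1 and 163.2 in replicate 2. At idhg-1, a subunit of the mitochondrial NAD-dependent isocitrate dehydrogenase, the values were 246.7 pooled, 79.98 in replicate 1 and 154.0 in replicate 2. All 4 peaks were higher in replicate 2 than in replicate 1, on scales that each list sets for itself.

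Further peaks among the 25 with the highest signal lay at mtcu-2, the worm MTO1, which modifies mitochondrial tRNAs, with a pooled signal of 195.8, and at atad-3, an ATPase of the mitochondrial inner membrane, with 181.5. The nuclear pore was represented by npp-6, a NUP160 homolog, with 202.8, and by npp-18, the SEH1 homolog, with 171.5. The peak at swsn-3, an HMG-box protein of the SWI/SNF chromatin remodeller, had 180.4, and that at daf-19, the RFX factor of ciliated neurons, had 171.2. The co-chaperone gene bag-1 had 180.8, the Ras GTPase-activating gene gap-2 had 165.0, and the kinase gene mnk-1 had 162.0. The protease gene tasp-1 had 203.5, against 110.4 and 91.55 in replicates 1 and 2. Of these 25 peaks, 25 were also listed by both replicates on their own, and 21 had the higher value in replicate 2. Of these peaks, 6 were assigned to genes with a sequence name only, among them T13C5.6 with 220.7, Y59A8B.24 with 176.0 and ZK816.3 with 174.0.

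**Figure D1:**
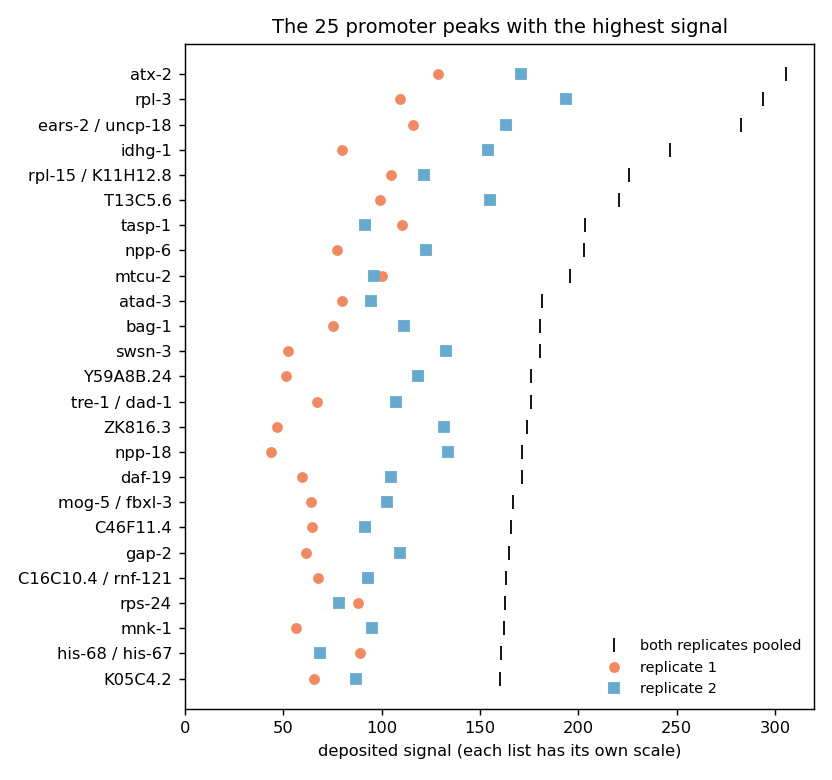
Deposited signal (horizontal axis, unit not stated) of the 25 promoter peaks with the highest pooled signal, 1 line per peak named by the genes whose window holds the summit; bars are the pooled list, circles replicate 1 and squares replicate 2. Replicate 2 is above replicate 1 for 21 of the 25, and the pooled values run from 160.3 at K05C4.2 to 305.4 at atx-2.

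Over all 323 peaks the replicates' own lists, of 466 peaks for replicate 1 and 802 for replicate 2, held similar shares of the members. They often held different ones. Replicate 1 listed 144 of them (44.58%, exact 95% interval 39.08 to 50.19) and replicate 2 listed 154 (47.68%, 42.12 to 53.28), a mean of 46.13% ± 2.189 (SD, n = 2). Both replicates listed 81 (25.08%), replicate 1 alone 63, replicate 2 alone 73, and neither 106 (32.82%), so that these 106 rest on the pooled lists. The peaks listed by both had a median pooled signal of 136.3, and those listed by neither 73.76. Among the 50 members with the highest signal both replicates listed 46, and among the 50 with the lowest, 2. Of the other listed peaks replicate 1 held 27.89% and replicate 2 held 53.51%, and of the peaks near small RNA genes 61.01% and 76.9%.

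Among 314 members with a candidate in both replicates, 239 had the higher signal in replicate 2, and the median ratio of replicate 2 to replicate 1 was 1.395. The signals of the replicates correlated with Spearman's rho = 0.2613 over these 314 peaks, which were chosen on lists made from the same libraries. The median signal was 38.2 in replicate 1 and 51.87 in replicate 2. Each member took the value of the replicate candidate that overlapped it most, so neighbouring summits can share 1 value. Both lsy-2 summits, for example, had 26.59 in replicate 1 and 35.87 in replicate 2. The correlation, the counts and the shares listed by each replicate thus count some replicate peaks more than once.

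**Figure D2:**
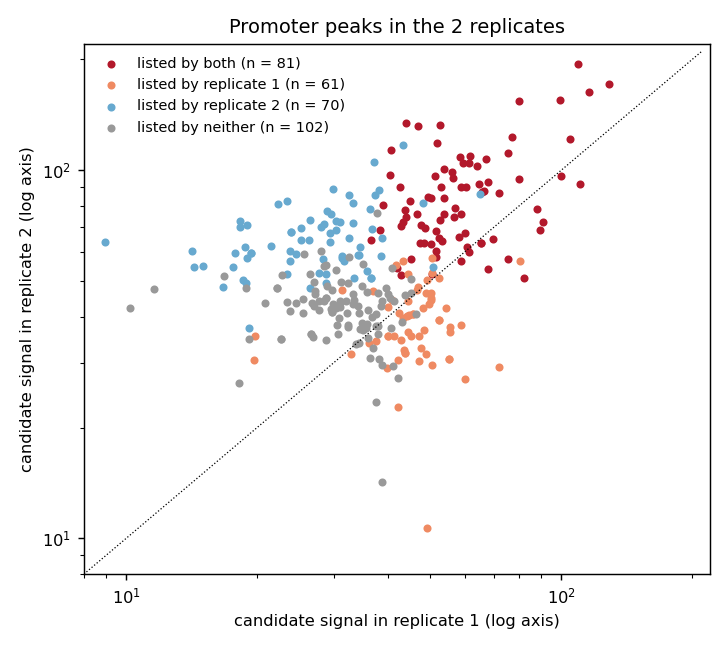
Candidate signal in replicate 1 (horizontal, log axis) and replicate 2 (vertical, log axis) for the 314 promoter peaks with a candidate in both, coloured by which replicate's own list holds them; the dotted line marks equal values. The 81 peaks listed by both lie toward the upper right, and 239 of the 314 points are above the line.

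Most members with a low signal lay beside a stronger peak. Of the 20 members with a signal under 50, 17 overlapped a stronger listed peak, and the lowest member that overlapped no other listed peak had 32.51. The lowest was a summit at lsy-2, a zinc finger gene, with 2.434, which lay beside another lsy-2 summit of 69.36. At hmg-1.1, an HMG-box gene, a summit of 3.309 lay beside summits of 45.59 and 83.06, and at ret-1, the worm reticulon, a summit of 4.386 lay beside one of 52.19. In all, 33 members overlapped another listed peak, so the 323 summits are not 323 separate loci.

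Signals on either side of the IDR limit were alike. Just inside lay mep-1, a zinc finger gene, with an IDR of 0.009993 and a signal of 65.14, T28D9.11 with 60.54 and Y45G5AM.9 with 66.80. Just outside lay W03C9.5 with an IDR of 0.01005 and a signal of 75.72, nhr-1 with 62.02 and vps-4 with 65.18. The highest signals among promoter candidates that were in neither list were 686.7 at Y80D4G.2, 155.5 at sre-47 and 83.62 at ubl-1, and 2 of these were within the IDR limit although absent from the lists. The strongest members that only the conservative list holds were ubc-6 with 91.95, atp-3 with 90.13 and crt-1 with 89.99, and those 28 members had a median of 70.64.

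Most summits lay upstream of the start. Their median distance from the nearest start in whose window they lay was -174 bp, with quartiles of -300.5 and -76 bp, and that of the failed candidates was -157 bp. Between 101 and 200 bp upstream lay 80 members (24.77%), against 18.1% of failed candidates, between 201 and 300 bp upstream 67 (20.74%), against 14.88%, and between 1 and 100 bp upstream 68 (21.05%), against 18.93%. At or downstream of the start lay 27 members (8.359%), against 20.34% of failed candidates. Summits up to 200 bp upstream made up 148 of 323 members (45.82%) and 37.24% of failed candidates, with an odds ratio of 1.425 (Fisher's exact test, two-sided, adjusted p = 0.003182 over 7 features). With the conservative list alone the odds ratio was 1.305 (Fisher's exact test, adjusted p = 0.07261). The replicates' own lists gave 56.16% and 44.94% for members and 37.71% and 36.3% for failed candidates. The summit fell in an annotated exon of any gene at 70 members and in coding sequence at 18.

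**Figure D3:**
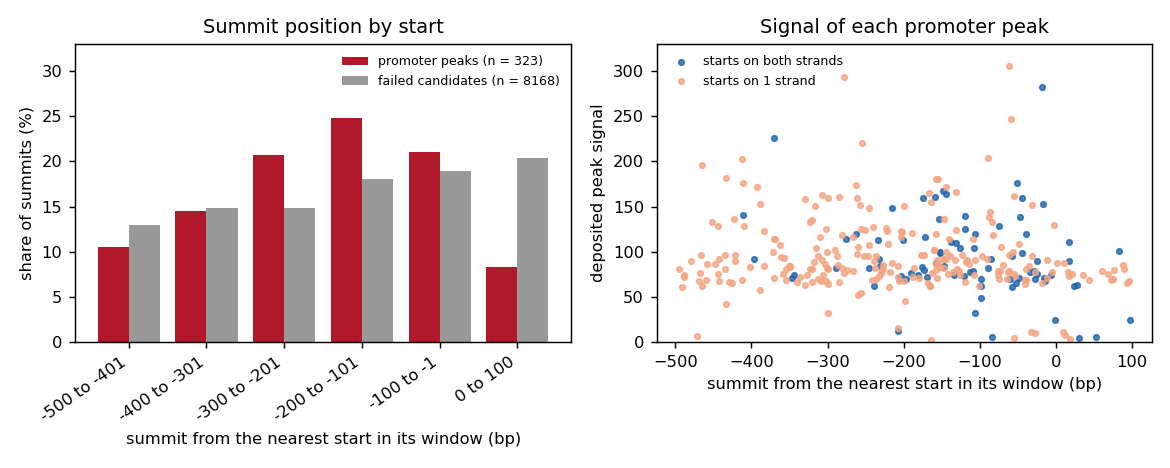
Left, share of summits (%) by distance in bp from the nearest start in whose window they lie, for the 323 promoter peaks and the 8168 failed candidates; right, deposited signal of each promoter peak against that distance, coloured by whether starts on 1 or both strands hold the summit. Promoter peaks are most frequent 101 to 200 bp upstream (24.77%) and fewest at or past the start (8.359%).

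Divergent promoters were the feature of gene arrangement with the largest difference. At 82 of 323 promoter peaks (25.39%, exact 95% interval 20.73 to 30.5) the summit lay in the windows of starts on both strands, against 588 of 8168 failed candidates (7.199%, 6.648 to 7.781), an odds ratio of 4.386 (Fisher's exact test, two-sided, adjusted p = 4.182e-22). Under the same rule the replicates' own lists gave 28.08% (replicate 1) and 25.95% (replicate 2), a mean of 27.02% ± 1.506, against 7.811% ± 0.5438 among failed candidates (SD, n = 2). Among windows with a GC content over 40%, an alternative chosen after seeing the data, the shares were 25.25% for members and 7.243% for failed candidates. At 73 of the 82 the starts faced away from each other with the summit between them. The gap between the starts there had a median of 409 bp, with a range of 60 to 901 bp, and at 49 the summit lay nearer to the middle of the gap than to either start. Divergent members had a median signal of 83.16, against 85.05 for the rest. Some pairs, such as his-61 and his-62 or dnj-28 and supr-1, held more than 1 of the 82 summits. The 82 are thus not separate pairs, while the exact test and interval treat each summit as separate.

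The strongest divergent pair, ears-2 and uncp-18, has its starts 92 bp apart, with the summit 19 bp and 73 bp upstream of them. The next, rpl-15 and K11H12.8, has starts 814 bp apart with a signal of 225.5, 104.7 in replicate 1 and 121.5 in replicate 2. The summit between tre-1, a trehalase, and dad-1, a subunit of the oligosaccharyltransferase, had 175.8. That between mog-5, a splicing helicase, and fbxl-3 had 166.9, and that between C16C10.4, annotated as a SAP18 homolog, and rnf-121 had 163.5. All 5 pairs were listed by both replicates. Since a divergent summit belongs to both genes, the 323 summits fell in the windows of 387 genes, or 5.50% of the 7041 protein-coding genes with a candidate in their window; 234 summits touched 1 gene, 86 touched 2 and 3 touched 3.

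Promoter peaks also lay more often at genes followed closely by another gene on the same strand, an arrangement that in worms includes operons. Operons themselves are not annotated in the reference used, so closeness within 500 bp stands in for them. A same-strand protein-coding gene began within 500 bp downstream of the assigned gene's end at 93 members (28.79%), against 18.24% of failed candidates, an odds ratio of 1.812 (Fisher's exact test, adjusted p = 9.734e-06). In the replicates' own lists the members' shares were 30.14% and 32.28%, a mean of 31.21% ± 1.513, against 18.98% ± 0.9192 for failed candidates (SD, n = 2). A same-strand gene ended within 500 bp upstream of the start, as at inner genes of such a row, at 35 members (10.84%) against 14.43% (odds ratio 0.7204, Fisher's exact test, adjusted p = 0.08676). By the same exact test, with a distance of 300 bp that odds ratio was 0.443 with adjusted p = 0.001441, and with gene starts in place of all transcript starts it was 0.5939 with adjusted p = 0.004363.

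In all, 80 members lay at the first gene of such a row, 61 in rows of 2 genes, 17 of 3 and 2 of 4. The gaps within these rows had a median of 109 bp over 101 neighbouring pairs. The strongest were rpl-15 followed by K11H12.1, tasp-1 followed by dpy-28, a condensin subunit of dosage compensation, and atad-3 followed by F54B3.1. The row of tre-1 continues with xpg-1, a nucleotide excision repair gene, and tmed-3, and that of npp-18 with pgm-2. A row of 4 genes, mnk-1, pro-1, R166.3 and R166.2, had its summit 55 bp upstream of mnk-1.

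**Figure D4:**
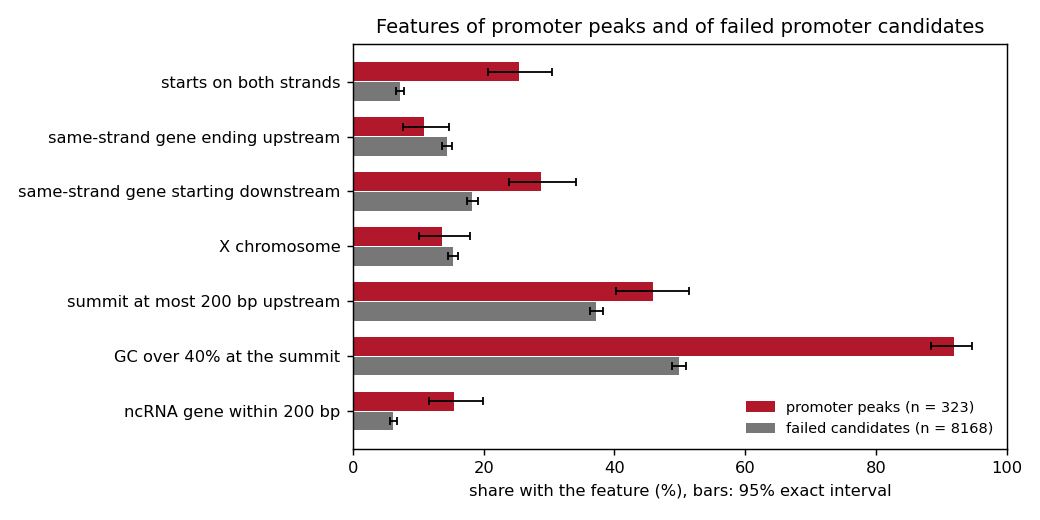
Share (%) of the 323 promoter peaks and of the 8168 failed promoter candidates with each of 7 features; error bars are exact 95% intervals of counting error. Starts on both strands (25.39% against 7.199%) and GC over 40% at the summit (91.95% against 49.87%) stand furthest apart, while X chromosome and same-strand gene ending upstream have overlapping intervals.

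The gene families at promoter peaks are given as counts beside the 5.50% of all genes with a candidate that had a member, with no test. In both, a gene was counted if its window held the summit, even where another gene's start was nearer. The summits of rps-20, rps-19, rps-0, rps-23, rpl-20 and rpl-1, and of atp-2 and snr-1 below, lay nearer to a start on the other strand. A summit can also count in more than 1 family, as did that between snx-13 and snr-1. Of 35 large ribosomal subunit genes with a candidate 7 had a member, and of 25 small subunit genes 7 (28.0%). The 7 large subunit genes had summits at a median of -302 bp. The strongest after rpl-3 and rpl-15 were rpl-20 with a signal of 159.9 and rpl-35 with 132.4. The small subunit genes were led by rps-24, with 162.6 pooled, 87.95 in replicate 1 and 78.45 in replicate 2, and rps-28, with 136.3. Both replicates listed 5 of the large subunit peaks and 3 of the small subunit ones. Mitochondrial ribosomal genes had 1 of 33, mrps-35 with 73.76.

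Histone genes had the highest share, 15 of 36 (41.67%), through 11 peaks. At 8 of these the summit lay in the windows of a pair of histone genes on opposite strands. The pair his-61 and his-62 held several of these summits, with signals of 61.69, 32.07 and 23.99, so there were fewer than 8 pairs. The pair his-68 (H2A) and his-67 (H4) had a signal of 160.5, 89.30 in replicate 1 and 68.79 in replicate 2, and the pair his-4 (H2B) and his-3 (H2A) had 129.0, 56.79 and 74.66. The other peaks had pooled signals of 77.49 or lower, and 3 of the 11 were listed by both replicates. Histone genes are present in near-identical copies, so reads could be shared between them and the peak at any single copy is uncertain.

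Further families of energy metabolism, RNA, transport, division and chromatin were counted, in no order of share. Oxidative phosphorylation genes had 9 of 45, led by the ATP synthase subunits atp-2 with 119.1 and atp-1 with 110.9, but both replicates listed 1 of the 9. Genes of messenger RNA processing and decay had 7 of 30 (23.33%), led by atx-2 and the poly(A)-binding gene pab-2 with 123.8. Nuclear transport genes had 6 of 28 (21.43%), and cell cycle and division genes 9 of 45, led by cdk-7, a kinase of transcription and the cell cycle, with 151.7, and cdc-48.1 with 99.95. Secretory and vesicle traffic genes had 9 of 54 (16.67%), led by the COPII GTPase gene sar-1 with 128.2. Genes of the DRM complex and chromatin had 6 of 44 (13.64%), with lin-9 at 81.64 and lin-52 at 81.08, both subunits of DRM. Spliceosome and Sm genes had 3 of 34 (8.824%), mog-5, mog-4 and snr-1, and all 3 were listed by both replicates.

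The remaining families of general use are counted next, followed by embryonic fate and ztf genes, which were not sorted by use. Aminoacyl-tRNA synthetase genes had 3 of 19, translation factor genes 2 of 21, RNA polymerase II and general factor genes 4 of 33, nucleolus and ribosome assembly genes 2 of 11 with nucl-1 at 81.46 and fib-1, the fibrillarin gene, at 74.32, and factors of small RNA gene transcription 1 of 7, rpac-19 with 90.92. Chaperone genes had 4 of 42, ubiquitin pathway genes 3 of 33, Argonaute and small RNA pathway genes 3 of 18 with alg-1 at 103.9, signalling kinase genes 2 of 20, cytoskeleton and motor genes 2 of 27, and mitochondrial carrier and import genes 2 of 13. Among regulators, pha-4, the FoxA gene of the pharynx, was the 1 of 18 embryonic fate genes, with 81.77. The ztf genes had 2 of 10, ztf-9 with 77.08 and ztf-29 itself with 69.13. The ztf-29 summit, at -459 bp from its start, was listed by neither replicate, with 29.87 in replicate 1 and 43.22 in replicate 2.

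The families counted last, taken here to have restricted use in the body, had shares under the background of 5.50%. The embryonic fate genes counted above, which may be of restricted use too, had 5.556%, close to the background. The use of no family was measured, so this grouping is not a result. A count of 0 says little where few genes had a candidate. Chemoreceptor genes had 2 of 150 (1.333%), nuclear hormone receptor genes 2 of 90 (2.222%) and F-box genes 3 of 82 (3.659%). No member lay at any of 57 cuticle collagen genes, 70 C-type lectin genes, 44 neuropeptide genes, 43 detoxification genes, 32 homeobox and hlh genes and 19 muscle structural genes with a candidate. Proteasome genes, which all cells use, also had 0 of 18, and mitochondrial ribosomal genes, with 3.03%, were under the background too. In total 116 member genes were in any of the 34 lists, and 112 member genes have a sequence name only.

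The summits of promoter peaks sat in a narrow rise of GC content. Within 50 bp of the summit the median GC content was 50.5%, against 48.51% for other listed peaks, 39.6% for failed candidates and 35.44% over the genome. Over 40% lay 297 of 323 members (91.95%), against 49.87% of failed candidates, an odds ratio of 11.48 (Fisher's exact test, adjusted p = 2.988e-57), and against 87.3% of other listed peaks, an odds ratio of 1.662 (adjusted p = 0.0665). For the 162 members with the higher signal the odds ratio was 2.73 (exact test, adjusted p = 0.04579). The reference there was a smaller set of other listed peaks, not all 441. The mean GC content of 25 bp at the summit was 52.84%, and 100 bp from the summit, upstream where the stretch was oriented, it was 37.11% for promoter peaks, 44.35% for other listed peaks and 36.49% for failed candidates.

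**Figure D5:**
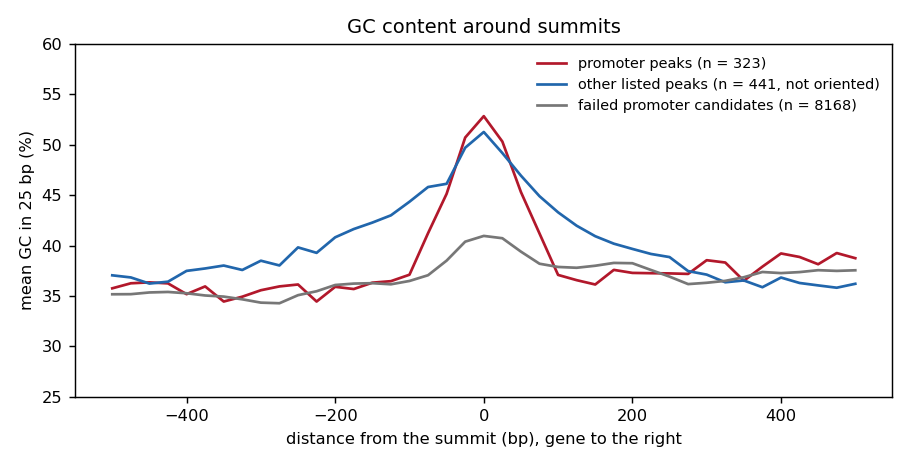
Mean GC content (%) of 25 bp stretches by distance from the summit in bp, with the assigned gene to the right for promoter peaks (n = 323) and failed promoter candidates (n = 8168), and unoriented for other listed peaks (n = 441). At the summit promoter peaks reach 52.84%, and 100 bp upstream they are at 37.11%, while other listed peaks are still at 44.35%.

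Words of 6 bases were compared, both strands merged, between the 101 bp at each summit and a stretch of the same length centred 300 bp away on the side away from the start. Of 2080 words 385 differed (18.5%, exact McNemar test, adjusted p at most 0.05), 206 more common at the summit and 179 less. The difference followed the base content of the words. Of the 36 words made of G and C alone, 21 were more common at summits and 0 less common, while of the 36 words with no G or C, 0 were more common and 29 less common. The word GCCGCA was in 58 members (17.96%) and in 3 flanks (0.9288%), with adjusted p = 4.26e-12 by the exact test, and GCGCAC in 53 (16.41%) and in 1 (0.3096%), with the same adjusted p. CCGCAC was in 53 members (16.41%) and 4 flanks (1.238%). AAAATT was in 13.93% of members and 42.11% of flanks, and TGAAAA in 13.31% and 38.7%. These are the 5 words with the smallest p. The words CGCACA, in 17.96% of members and 3.406% of flanks, and GCGCGC, in 15.17% and 1.548%, are also marked in the printed sequences and were chosen after their values were seen.

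A second comparison set the promoter peaks against the 441 other listed peaks, which have a like GC content at the summit. Of 2080 words 124 differed (5.96%, Fisher's exact test, two-sided, adjusted p at most 0.05), 89 more common in promoter peaks and 35 less, and 53 were more common in both comparisons. TTGCAA, a word with few G or C letters, was in 48 promoter peaks (14.86%, exact 95% interval 11.16 to 19.22), against 6 other listed peaks (1.361%, exact test, adjusted p = 4.669e-10). It was in 4.954% of the upstream flanks, 4.983% of failed candidates and 5.252% of all 19973 protein-coding promoters. Those promoters were all taken around 1 fixed point, -174 bp from the start, the median of the members, and were not matched to each summit's distance. CTTGCA, which overlaps TTGCAA, was in 12.69% of promoter peaks against 1.587% of other listed peaks (exact test, adjusted p = 3.067e-07). TGCAAA, which overlaps TTGCAA too, was in 19.81% against 6.349% (exact test, adjusted p = 1.405e-05). GCCGCA was in 17.96% against 5.442% (exact test, adjusted p = 2.584e-05). CGAAAA, marked in the mtcu-2 stretch and chosen after its values were seen, was in 22.6% of promoter peaks and 9.297% of other listed peaks (exact test, adjusted p = 0.0001192), and in 25.39% of the upstream flanks. AGCCTA ran the other way, in 2.477% of promoter peaks and 12.93% of other listed peaks (exact test, adjusted p = 2.756e-05). It is the telomeric hexamer TTAGGC read on its other strand from another base. The criteria barred 2 tandem copies of that hexamer from both sets but not single or imperfect copies, so the word is not independent of them. In replicate 1's own lists AGCCTA was in 2.055% of members and 2.055% of other listed peaks, and in replicate 2's in 3.797% and 18.01%.

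TTGCAA was found in both replicates' own lists. It was in 16.44% of replicate 1 members and 1.37% of the other listed peaks of replicate 1 (adjusted p = 0.004535), and in 19.62% of replicate 2 members and 2.299% of its other listed peaks (adjusted p = 1.59e-06, Fisher's exact test). GCCGCA was in 18.49% of replicate 1 members against 8.904% of other listed peaks (exact test, adjusted p = 0.7843) and in 25.95% of replicate 2 members against 4.598% (adjusted p = 8.691e-07). Replicate 1 alone, with 146 members and 146 other listed peaks, had 4 words that differed, and replicate 2 alone, with 158 and 261, had 60. Members with TTGCAA had a median signal of 96.82, against 83.06 for those without, and members with GCCGCA 106.6 against 81.51.

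Known motifs were looked up by their letters on both strands, as a description. GGGCGG, the core of the SP1 site of mammals, was in 48 members (14.86%), 1.858% of upstream flanks, 5.896% of other listed peaks, 4.53% of failed candidates and 2.373% of all promoters, and atx-2, idhg-1 and tasp-1 were the strongest members with it. GAGAGA was in 17.65% of members, 6.502% of flanks, 20.63% of other listed peaks and 8.096% of all promoters. TATAAA was in 4.644% of members, 3.628% of other listed peaks and 12.97% of all promoters. In the same order, the GATA-factor motif TGATAA was in 2.167%, 2.268% and 11.6%, and CCAAT in 13.93%, 16.33% and 18.12%. TTTTTTT was in 4.334%, 7.256% and 23.91%. CACGTG was in 2.477%, 2.041% and 1.657%, and in 2.644% of failed candidates. GTTCGANTC, the core of the B box of tRNA genes, was in 0 of 323, which allows a share of up to 1.136% by an exact interval, and in 1.134% of other listed peaks. TGGCNNAGT, that of the A box, was in 1.238% and 3.628%. TTTCGCGC, an E2F-like site, was in 1.548% of members, 0.4535% of other listed peaks and 0.4406% of all promoters. TGACGTCA was in 0 of 323 members, 0.4535% of other listed peaks and 0.6559% of all promoters. TTTTCAG, a splice acceptor, was in 3.096% of members, 2.494% of other listed peaks and 8.872% of all promoters.

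Non-coding RNA genes other than the small RNA classes used by the rule lay close to some summits. A gene of the class ncRNA was within 200 bp of 50 members (15.48%), against 6.134% of failed candidates, an odds ratio of 2.803 (Fisher's exact test, adjusted p = 1.287e-08), and against 19.5% of other listed peaks, an odds ratio of 0.756 (adjusted p = 0.18). That difference from other listed peaks passed the threshold in other settings of the exact test. The odds ratio was 0.4609 on the list of replicate 1 alone (exact test, adjusted p = 0.02007) and 0.4178 with a window of 250 bp (adjusted p = 0.0009122). For the 162 members with the higher signal, against a smaller set of other listed peaks, it was 0.5214 (exact test, adjusted p = 0.04579). T13C5.6, ZK816.3 and the tre-1 and dad-1 pair were among the strongest of the 50 members.

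The promoter peaks were spread over all chromosomes, with 68 on chromosome I, 47 on II, 62 on III, 49 on IV, 53 on V and 44 on X. The share on X was 13.62%, against 15.24% of failed candidates (Fisher's exact test, adjusted p = 0.4768, odds ratio 0.8769) and 19.5% of other listed peaks (odds ratio 0.651, adjusted p = 0.0665). In the replicates' own lists 6.849% of replicate 1 members and 13.92% of replicate 2 members were on X, a mean of 10.38% ± 5.0 (SD, n = 2), against 15.96% and 14.93% of failed candidates. Replicate 1 alone gave an odds ratio of 0.3872 against failed candidates (Fisher's exact test, adjusted p = 0.002443) and replicate 2 alone 0.9216 (adjusted p = 0.8212). Against other listed peaks the odds ratio for X was 0.2332 with replicate 1 alone (exact test, adjusted p = 0.0002138). For the 162 members with the higher signal, against a smaller set of other listed peaks, it was 0.5327 (exact test, adjusted p = 0.04579). On the autosomes 113 of 279 members (40.5%) lay in the central one of 3 equal parts of their chromosome, against 31.78% of failed candidates.

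Repeated sequence lay under a minority of summits. A run of 20 bases found in 10 or more places of the genome was in the summit window of 42 members (13.0%), against 25.17% of other listed peaks and 9.953% of failed candidates. The highest copy numbers were 2096 at a summit of hmg-1.1 and 2025 at rsbp-1, and npp-6 and eel-1 had 86 each. Of the 25 strongest members, 4 had such a run: npp-6, atad-3 with 84 copies, and mtcu-2 and npp-18 with 20 each. Without these members 349 words differed from the flank and 115 from the other listed peaks, an alternative chosen after seeing the data. Of these 42 members, 28 shared a run of 20 bases with another member, and 34 of all 323 did so, whatever its number of places in the genome. Reads from such runs could have been placed at either locus.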

How the data were processed

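The 2 ChIP-seq libraries of 1 group were deposited as peak lists per replicate and pooled. The deposited signal and score of each peak are the authors' values; per the file headers and readme they are on ce11, and every listed peak ended within its WBcel235 chromosome, so coordinates were used as they stand. The score is a scaled IDR. No source used here names the aligner, peak caller or depth, and the possible control experiment was not analysed here.

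Genes came from Ensembl release 115. The assigned start was the nearest whose window held the summit. Named genes were the 25 members with the highest signal, the 5 strongest divergent pairs and rows, up to 2 per list, the 5 words with the smallest p per test, and the edge cases; further words and genes were chosen after their values were seen. Members and lists were chosen with earlier results of these data known. Fisher's exact and exact McNemar tests were two-sided, with Benjamini-Hochberg adjustment and 0.05 as threshold, and compare peaks within these lists, not conditions. Intervals are exact (95%) and cover counting error only. The tests were checked on simulated data: planted words were found in 20 of 20 tests, with 1 other call in 41476, and the test of shares found a planted difference in 100 of 100 runs and called 8 of 100 without one, at an unadjusted p. Python 3.11.15, numpy 2.4.6, pandas 2.3.3, scipy 1.17.1 and matplotlib 3.10.9 were used. Alternatives are in the closing section.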

Additional observations from a re-analysis of the deposited data

How the results depend on the processing

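No paired analysis was possible because the 2 replicates form a single group. The divergent, downstream-gene, GC and ncRNA differences from failed candidates stayed on the same side of the threshold in every alternative run. The conservative list alone gave 245 words against the flank, 62 against other listed peaks and an odds ratio of 1.305 for summits at most 200 bp upstream. A window of 250 bp gave 212 members, 195 and 53 words, and an odds ratio of 0.4178 for ncRNA genes against other listed peaks, past the threshold; a window of 1000 bp gave 70 words against other listed peaks and 0.5638 for same-strand genes ending upstream. That last odds ratio was 0.5939 with gene starts only and 0.443 with 300 bp, and all 3 were past the threshold. The 162 members with the higher signal gave 164 and 56 words. Against a smaller set of other listed peaks they gave odds ratios of 0.5327 for X, 2.73 for GC and 0.5214 for ncRNA genes, all 3 past the threshold. Windows of 25 bp each side gave 192 and 37 words, and words of 8 bases 11 and 19. Leaving out 1 replicate gave 146 to 158 members, 129 to 136 words against the flank and 4 to 60 against other listed peaks. Between the replicates the odds ratio for X ran from 0.3872 (without replicate 2) to 0.9216 against failed candidates and from 0.2332 to 0.7178 against other listed peaks. Against other listed peaks that for GC ran from 1.503 to 2.416 and that for ncRNA genes from 0.4609 (without replicate 2) to 0.6066. Without replicate 2 these 4 odds ratios were past the threshold, and without replicate 1 they were not. The cause was not tested for any of these changes. Depth is unknown and limits every listing.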

Other observations

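A pair of words noticed in the printed sequences was counted afterwards, with no test. The members' counts include the printed peaks where the pair was noticed, at atx-2, swsn-3 and idhg-1, so they are not independent of that choice. TGCGGC followed on the same strand by CTTGCA, with 3 bases between them, was in 6 of 323 promoter peaks, 0 of their upstream flanks, 0 of 441 other listed peaks and 2 of 8168 failed candidates, and in 17 places of the genome. The 6 peaks lay at atx-2, swsn-3, spe-48, rps-28, Y22D7AL.10 and Y39A3CL.7, with signals of 305.4, 180.4, 159.0, 136.3, 120.4 and 76.66. At idhg-1, with 246.7, 1 base lay between the words. With any gap up to 40 bp the pair was in 11 promoter peaks, 0 flanks, 0 other listed peaks and 7 failed candidates.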
